A study of Homo sapiens with 9 samples.

Results

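The comparison described here sets the 3 libraries titled TLX1 siRNA1 (replicates 1 to 3) against the 3 titled TLX1 siRNA2 (replicates 1 to 3), which are 6 of the 9 libraries of the study, chosen by title and paired by replicate number. All 9 libraries came from ALL-SIL, an established human line of T-cell acute lymphoblastic leukaemia (T-ALL), whose polyadenylated RNA was sequenced after siRNA electroporation. The other 3 libraries received an siRNA labelled NTC and serve here as the level against which both TLX1 siRNAs are read. The 3 groups share the cell line, the culture medium and the electroporation and differ, per the labels, only in the siRNA. The labels name a single cell line and give no siRNA sequence, dose or harvest time. They leave unsaid whether replicates are separate cultures, and the p-values cover the spread between these samples only, which may be technical.

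TLX1 is a homeobox transcription factor that is silent in normal T cells and is switched on by chromosomal rearrangement in a subset of T-ALL, where it is linked to arrest at the early cortical thymocyte stage. An siRNA is a short RNA duplex whose guide strand brings the Argonaute-containing silencing complex to a matching mRNA. Cells are commonly given several siRNAs against the same mRNA because what they share is more readily ascribed to the target than what differs between them, and the comparison of siRNA1 with siRNA2 asks what differs.

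Depth was 91864795 to 95072634 gene counts in the libraries labelled siRNA1 and 58305492 to 81903079 in those labelled siRNA2. The siRNA1 library was the deeper one in all 3 same-numbered pairs, by 1.34, 1.13 and 1.58 times in replicates 1 to 3. Mitochondrially encoded genes took 5.76, 5.58 and 4.68% of gene counts under the siRNA1 label and 5.40, 5.20 and 4.24% under the siRNA2 label, so they too were higher in each pair. Of 13 T lymphoblast markers 12 stood above 1 CPM, and their summed level was 2710 to 2760 CPM under the siRNA1 label and 2350 to 2620 CPM under the siRNA2 label. TLX1 is 1 of the 13, and without it, a sum added after its values were seen, the ranges were 2310 to 2340 and 2170 to 2400 CPM and overlapped. Libraries deviated together by number: the correlation of same-numbered libraries' deviations from their group means was 0.594, 0.570 and 0.460, against −0.386 to −0.155 for libraries of different numbers. The main test therefore keeps the replicate number as a block, and calls of named genes that the fit without it loses are given as such or as made with the block only. Counts of a list are also given from the 9 fits that each leave out 1 library, beside the lists whose counts they move most.

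The targeted gene goes against the label, and whether labels were exchanged cannot be checked from the files used here. TLX1 (ENSG00000107807.12, chr10:101130505-101137789 on the plus strand of GRCh38) stood at 406, 457 and 387 normalised CPM (counts scaled to a common library total with edgeR's TMM factors) in replicates 1 to 3 labelled siRNA1. The values were 198, 231 and 179 CPM under the siRNA2 label and 184, 167 and 183 CPM under NTC. All 3 siRNA1 libraries lay above all 6 others, while the siRNA2 and NTC libraries overlapped. TLX1 mRNA was 2.06-fold higher under the siRNA1 than under the siRNA2 label (log2 fold change 1.04 with an SE of 0.0756; adjusted p = 4.06e-09 by edgeR's quasi-likelihood test), with paired log2 differences of 1.03, 0.99 and 1.11. Set against the NTC label, the siRNA1 label was higher by 1.22 on the log2 scale (SE 0.076, adjusted p = 2.03e-10), and the siRNA2 label by 0.18 (SE 0.0752), which did not pass (adjusted p = 0.495). Libraries are named by their label below, and every direction is one between labels.

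TLX1NB, which overlaps the start of TLX1 on the other strand by 622 bases, had 0 counts in every library. TLX3, a homeobox oncogene of another T-ALL subset, had 54 counts in the siRNA1, 41 in the siRNA2 and 33 in the NTC library of replicate 1, and 0 counts in the other 6 libraries. TLX2 had at most 5 counts. BTRC, a ubiquitin ligase subunit encoded farther along chromosome 10, was lower under the siRNA1 label (log2 fold change −0.46, SE 0.0685, adjusted p = 5.89e-05).

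Across 18554 genes tested, 1958 passed at an adjusted p under 0.05 (10.6%), 981 of them higher (5.29%) and 977 lower (5.27%) under the siRNA1 label. Most differences were small: the median absolute log2 fold change of the genes that passed was 0.37, 1356 of them lay under 0.5, and 80 higher and 43 lower genes differed by more than 2-fold. Of the 1958, 1950 had the same sign in all 3 pairs, against 44.7% of all genes, and 1232 had groups that did not overlap, against 14.4% of all genes. A fit with the block on these same libraries favours genes whose pairs agree. Both counts therefore describe the calls and are no separate support for them. Without the block 201 genes passed (1.08%), 64 higher (0.345%) and 137 lower (0.738%), and all 201 were among the 1958. Without replicate 1 of the siRNA1 label 980 genes passed, and without its replicate 3 1135 passed. With every library thinned to the depth of the shallowest 1906 genes passed, 1765 of them among the 1958.

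**Figure D1:**
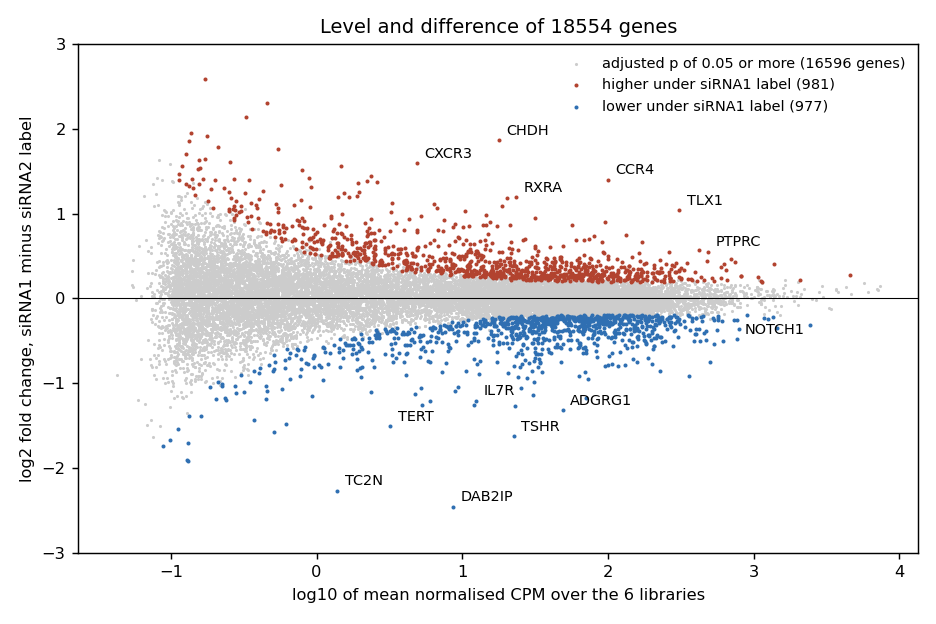
Each point is 1 of the 18554 genes tested, with the log10 of its mean normalised CPM over the 6 libraries on the horizontal axis and its log2 fold change, siRNA1 minus siRNA2 label, on the vertical axis. The 981 higher (red) and 977 lower (blue) genes form bands close to 0 on both sides, with CHDH, CXCR3 and CCR4 far above them and DAB2IP, TC2N and TSHR far below.

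A 7-base word was more frequent in the 3′ ends of the lower genes than in those of the higher genes, although most lower genes lack it. All 16384 words of 7 bases were counted on the mRNA strand in the longest annotated 3′ untranslated region (UTR) of 12284 protein-coding genes tested, and words were ranked by the share of lower genes that hold them over the share among genes that did not pass. The highest ratio, 5.58, belonged to GCAGTAC, and the next word reached 3.41. Ranked by the difference in share instead, GCAGTAC stood at rank 33, and the first was TATTTTT, held by 69.5% of lower genes, 33.0% of higher genes and 47.5% of those that did not pass. The word was present in 187 of 853 lower genes (21.9%), 21 of 793 higher genes (2.65%), 418 of 10638 genes that did not pass (3.93%) and 5.10% of all genes searched. Among genes that passed without the block it was present in 58 of 130 lower genes (44.6%) and 1 of 58 higher genes. Its reverse complement GTACTGC was present in 10.7% of lower, 3.78% of higher and 5.75% of other genes. Because the word was picked for its frequency among these same calls, and was seen earlier in the comparison of the same siRNA1 libraries with NTC, these shares are a description and carry no test. A match describes the sequence and is not by itself a binding site.

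Sites are shown for lower genes that hold the word, with 10 bases on each side, 5′ to 3′ on the mRNA strand (GRCh38 positions, GENCODE 29 transcripts), so that the shared part, in capitals, can be seen within flanks that differ. SCAMP1, TLN1 and HIPK3 were picked with their values in view, among word-bearing genes with the larger decreases that also passed without the block. The others fall under the rule for named genes. The positions are chr14:91780472-91780498 (minus strand) for TC2N, chr5:78476413-78476439 (plus) for SCAMP1, chr15:60491376-60491402 (minus) for RORA, chr9:35697627-35697653 (minus) for TLN1, chr11:33354720-33354746 and chr11:33355724-33355750 (plus) for HIPK3, chr1:35854832-35854858 and chr1:35857690-35857716 (plus) for AGO4, chr6:135217861-135217887 (plus) for MYB and chr11:36577551-36577577 (plus) for RAG1.
TC2N: atttttaaaaGCAGTACtcctagggaa
SCAMP1: tatataatatGCAGTACattatccaaa
RORA: tgccacattaGCAGTACcacacttctt
TLN1: gcccagtcccGCAGTACatcccctgtc
HIPK3, first copy: tttttacattGCAGTACttgttttgct
HIPK3, second copy: gtaaaaaccaGCAGTACatttttagtc
AGO4, first copy: acgactacttGCAGTACaaattttttg
AGO4, second copy: taataagtatGCAGTACactgtaatgg
MYB: cagccttgtaGCAGTACctgggaacct
RAG1: gagtccaaacGCAGTACagcagaagag

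The genes behind these sites were lower in every pair. SCAMP1, a carrier protein of secretory vesicles, stood at 18.5, 21.9 and 21.5 CPM in replicates 1 to 3 of the siRNA1 label and at 35.5, 40.05 and 48.1 CPM in those of the siRNA2 label. HIPK3, a nuclear protein kinase, stood at 51.8, 48.5 and 48.1 CPM against 92.5, 92.8 and 86.1 CPM. TLN1, the talin that couples integrins to actin, stood at 236, 228 and 288 CPM against 453, 524 and 434 CPM. In each of these 3 genes the groups were well apart, and the siRNA2 libraries lay near the NTC means of 38.7, 84.3 and 489.6 CPM. The log2 fold changes were −0.99, −0.87 and −0.91 in this order. All 3 passed without the block, which their choice required, so that pass adds no support.

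The values by number of copies describe the same calls from which the word was picked, so that choice tilts their direction. Genes with 0 copies in the 3′ UTR had a median log2 fold change of 0.00731 (11658 genes, 5.71% of them lower). Those with 1 copy had a median of −0.132 (589 genes, 29% lower), and those with 2 or more a median of −0.166 (37 genes, 43.2% lower), with 35 of the 37 below 0. The middle 50% of values ran from −0.28 to 0.0234 with 1 copy and from −0.452 to −0.11 with 2 or more, and so overlapped. In the same 3 classes the medians of siRNA1 against NTC were −0.00596, −0.117 and −0.131, and those of siRNA2 against NTC were −0.0114, 0.0165 and 0.0511. These comparisons share libraries, so their values are set side by side only. Where the word lay only upstream of the 3′ UTR, 11.4% of 1412 genes were lower.

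The word is more frequent in long 3′ UTRs, and the lower genes had longer ones, with a median of 2170 bases against 997 for higher genes and 1241 for genes that did not pass. The median 3′ UTR length also rose with the copies, from 1200 bases with 0 to 3100 with 1 and 5300 with 2 or more. The shares within 3 classes of 3′ UTR length of near-equal size are a description, since the word came from these calls, and the part of length in them was not tested. In the class of shortest 3′ UTRs 37.5% of genes with the word were lower against 3.67% without it. In the middle class the shares were 30.0% and 5.06%, and in the class of longest 3′ UTRs 29.3% and 8.71%. The word was followed by A at 40.3% of 216 sites in lower genes and at 30.5% of 442 sites in genes that did not pass.

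**Figure D2:**
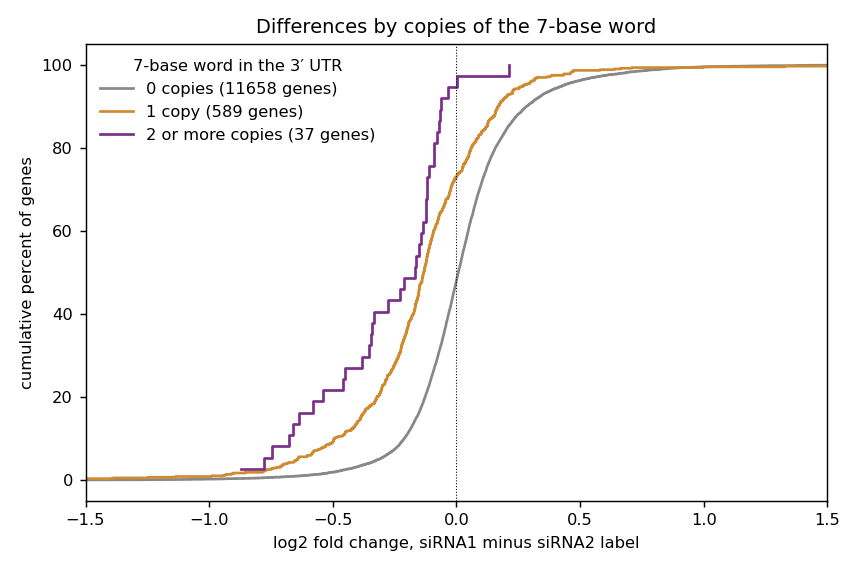
The curves give the cumulative percent of genes (vertical axis) at or below each log2 fold change, siRNA1 minus siRNA2 label (horizontal axis), for genes with 0, 1 and 2 or more copies of the 7-base word in the 3′ UTR. The curve of the 589 genes with 1 copy lies to the left of that of the 11658 genes with none, and that of the 37 genes with 2 or more lies farther left, with 35 of the 37 below 0.

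The genes with the largest decreases included a Ras regulator, a hormone receptor and telomerase's catalytic subunit. Of 26 searched genes that were lower by more than 2-fold, 4 (15.4%) hold the word. DAB2IP (ENSG00000136848.16, chr9:121567057-121785530), a GTPase-activating protein that turns off Ras, stood at 2.77, 1.95 and 3.38 CPM under the siRNA1 label and at 15.2, 13.1 and 15.5 CPM under the siRNA2 label, with 18.3, 15.3 and 22.5 CPM under NTC. The siRNA1 libraries were far below the other 6, and the siRNA2 libraries overlapped NTC. DAB2IP was 5.48-fold lower (adjusted p = 2.88e-13; log2 fold change −2.45, SE 0.0991), and its 3′ UTR holds no copy of the word, although 1 copy lies upstream of it. TC2N, a protein with tandem C2 domains whose site is shown above, stood at 0.234, 0.687 and 0.525 CPM against 2.06, 2.32 and 2.52 CPM. It was 4.81-fold lower (adjusted p = 4.14e-08; log2 fold change −2.27, SE 0.194), at a low level in both groups.

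TSHR, the thyrotropin receptor (chr14:80954989-81146302), stood at 13.0, 11.2 and 9.13 CPM under the siRNA1 label and at 40.1, 33.9 and 28.9 CPM under the siRNA2 label. The groups did not overlap, and the paired log2 differences of −1.62, −1.59 and −1.66 were nearly equal (log2 fold change −1.63, SE 0.0703, adjusted p = 6.32e-13). TERT, the catalytic subunit of telomerase (chr5:1253147-1295069), stood at 1.35, 1.504 and 2.22 CPM against 5.24, 4.03 and 4.93 CPM, a 2.84-fold difference (log2 fold change −1.51, SE 0.138, adjusted p = 9.69e-08). Of 17 telomerase and shelterin genes tested, TERT was the 1 that fell (2 fell without replicate 3 of the siRNA1 label), and the helicase PIF1 rose (log2 fold change 0.59), a call lost without the block (adjusted p = 0.751). Called members were 11.8% of this list, near the 10.6% of all genes. Neither TSHR nor TERT holds the word in its 3′ UTR.

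ADGRG1, an adhesion G protein-coupled receptor of cytotoxic lymphocytes (chr16:57610652-57665580), stood at 3 levels in the 3 groups. It was measured at 23.1, 30.9 and 30.4 CPM under the siRNA1 label, at 66.4, 72.0 and 70.1 CPM under the siRNA2 label and at 81.9, 95.8 and 112 CPM under NTC, with no overlap between any groups. It was lower under the siRNA1 than under the siRNA2 label (log2 fold change −1.32, SE 0.0757, adjusted p = 7.64e-11), and lower under the siRNA2 label than under NTC (log2 fold change −0.46, adjusted p = 0.00425), the latter a call made with the block only. The other genes with the largest decreases were CSGALNACT1, an enzyme that starts chondroitin sulfate chains (log2 fold change −1.27), IGLL1, a surrogate light chain of precursor B cells (−1.26), the T cell receptor segment TRBV7-2 (−1.26), the receptor phosphatase PTPRU (−1.21), IL7R (−1.21), the noncoding AC011893.1 (−1.17) and TOP1MT, the mitochondrial topoisomerase (−1.14). All passed without the block except PTPRU (adjusted p = 0.201). TRBV7-2 belongs to a family of similar segments, and its counts are uncertain for that reason.

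CHDH, choline dehydrogenase of mitochondria (ENSG00000016391.10, chr3:53812335-53846390), had the largest increase among genes with a mean of at least 1 CPM. It stood at 38.9, 24.8 and 19.9 CPM in replicates 1 to 3 of the siRNA1 label and at 11.1, 7.77 and 4.50 CPM in those of the siRNA2 label, with 12.2, 9.26 and 6.14 CPM under NTC. Levels were highest in replicate 1 and lowest in replicate 3 in every group, yet all 3 siRNA1 libraries lay above the other 6. CHDH was 3.64-fold higher (log2 fold change 1.86, SE 0.0885, adjusted p = 2.98e-12). The gene overlaps CACNA1D on the other strand by 1399 bases, whose reads cannot be told apart in unstranded libraries. Its 3′ UTR holds 1 copy of the word, and the gene was higher.

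The chemokine receptor CXCR3, which guides effector T cells to inflamed tissue, stood at 6.84, 8.65 and 6.26 CPM against 2.11, 3.85 and 1.46 CPM (log2 fold change 1.59, SE 0.135, adjusted p = 3.53e-08). CCR4, a skin-homing receptor of helper and regulatory T cells, stood at 135, 148 and 153 CPM against 45.0, 55.4 and 66.2 CPM (log2 fold change 1.40, SE 0.074, adjusted p = 2.07e-11). Neither receptor's groups overlapped. SNAI2, a zinc-finger repressor of epithelial genes, stood at 3.62, 4.42 and 3.16 CPM against 1.07, 2.10 and 1.18 CPM (log2 fold change 1.38, SE 0.144, adjusted p = 6.52e-07). RXRA, the partner of many nuclear receptors, stood at 23.8, 34.1 and 41.1 CPM against 12.4, 14.2 and 15.9 CPM (log2 fold change 1.19, SE 0.0921, adjusted p = 1.08e-08). The other genes with the largest increases were TDRD12, a tudor-domain protein of germ cells (log2 fold change 1.56), GOLGA7B (1.44), NCR2, an activating receptor of natural killer cells (1.39), the pseudogene CASP17P (1.36), GBP2, an interferon-induced GTPase (1.26), IGHM, the immunoglobulin mu chain (1.24), the noncoding LINC002481 (1.2) and the splicing regulator RBM20 (1.19). Of these, TDRD12 (adjusted p = 0.337), IGHM (0.111) and RBM20 (0.339) lost their call without the block.

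**Figure D3:**
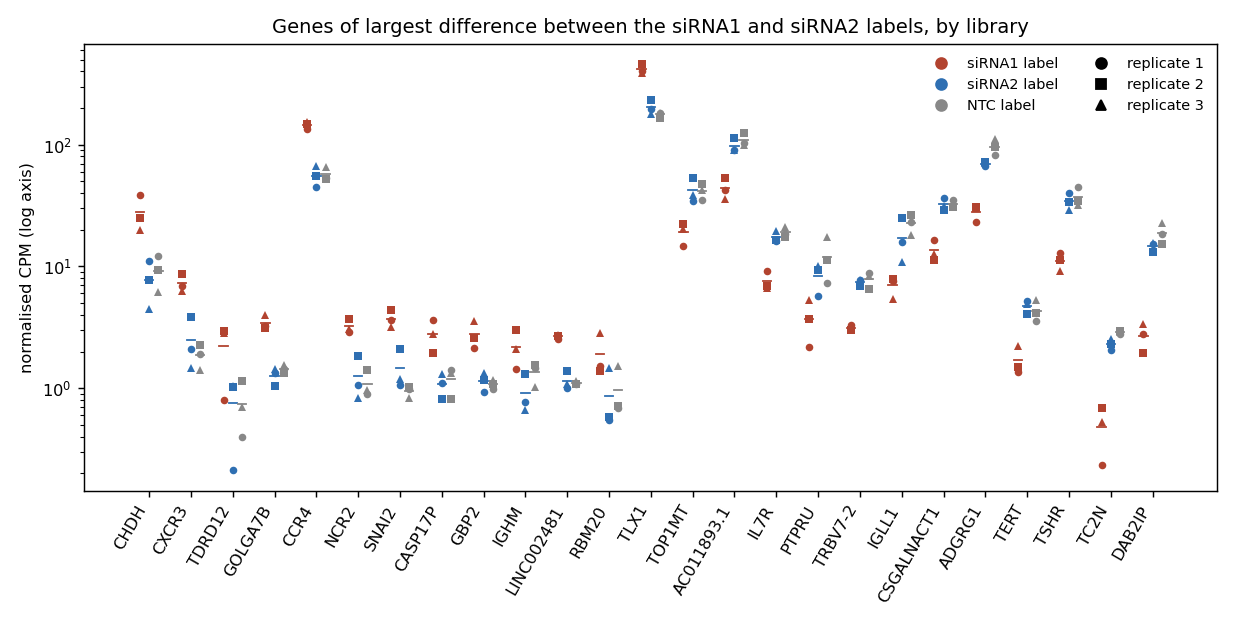
Normalised CPM in each of the 9 libraries (log axis) for TLX1 and the 12 genes with the largest fold change each way, with colour for the label, marker shape for the replicate number and a bar for the group mean. In the 12 higher genes and TLX1 the siRNA1 points stand above the siRNA2 points of the same number, in the 12 lower genes below them, and the siRNA2 and NTC points lie close together except in genes such as ADGRG1.

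Genes that mark stages of thymocyte maturation were mostly lower under the siRNA1 label. Of 22 such genes tested, 12 fell and 3 rose, with a median log2 fold change of −0.307 against 0.0113 over all genes. Called members were 68.2% of the list, against 10.6% of all genes called in either direction. IL7R, the interleukin-7 receptor of early thymocytes, stood at 9.17, 6.87 and 6.62 CPM against 16.2, 16.6 and 19.5 CPM, with no overlap (log2 fold change −1.21, SE 0.104, adjusted p = 4.24e-08). DNTT, the terminal transferase that adds bases to rearranging receptor genes, stood at 19.4, 12.5 and 17.0 CPM against 39.9, 24.5 and 37.6 CPM (log2 fold change −1.05, SE 0.0685, adjusted p = 6.6e-10). Both groups of DNTT were lowest in replicate 2, and still did not overlap.

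RAG1 and RAG2, the recombinase that cuts receptor genes, differed least between the labels in replicate 1, where both were lowest. RAG1 stood at 12.7, 18.2 and 23.6 CPM under the siRNA1 label and at 16.9, 38.4 and 57.8 CPM under the siRNA2 label, and RAG2 at 3.55, 6.19 and 8.16 CPM against 6.62, 11.9 and 19.7 CPM. The groups of both genes overlap, because replicate 1 is low in both labels, and each siRNA1 library was below the siRNA2 library of its number. With the block RAG1 fell by 0.94 and RAG2 by 1.05 on the log2 scale (adjusted p = 1.83e-06 and 8.44e-08), and without it neither passed (adjusted p = 0.404 and 0.359). The 2 genes overlap each other on opposite strands by 17583 bases, and the site printed for RAG1 lies in that stretch.

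The other members that fell included ARPP21, a phosphoprotein of cortical thymocytes (log2 fold change −0.88), the ectoenzyme CD38 (−0.62), and the lipid-presenting CD1A (−0.60), CD1D (−0.51), CD1C (−0.46), CD1B (−0.33) and CD1E (−0.29). The 3 that rose were CCR9, which draws progenitors into the thymus (0.51), CD7 (0.58) and CD52 (0.76). Members named beyond the 4 with the largest change in a list were singled out after their values were seen. Without the block, IL7R, DNTT and ARPP21 passed and none of the 3 higher genes did. Leaving out any single library left 10 to 12 members lower and 3 to 4 higher.

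**Figure D4:**
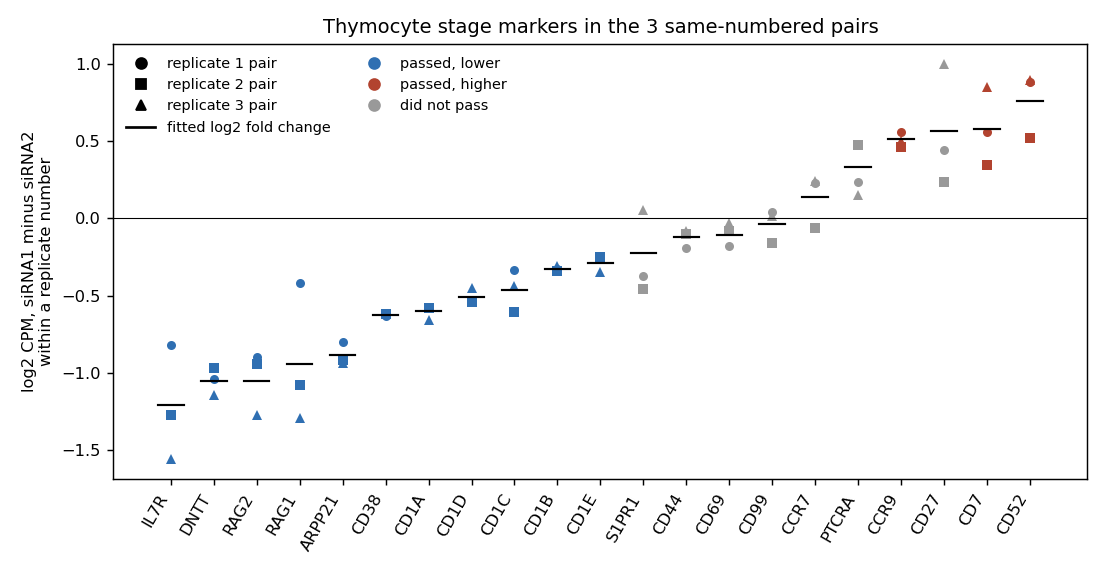
Log2 difference in CPM, siRNA1 minus siRNA2, within each same-numbered pair for 21 of the 22 thymocyte stage markers tested (marker shape, replicate number; bar, fitted log2 fold change; colour, direction of genes that passed). The 11 lower members shown lie below 0 in all 3 pairs, with RAG1 and IL7R the most spread between pairs and CD38 and CD1B the least.

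NOTCH1 signalling is the main growth pathway of T-ALL. Of 17 NOTCH1 pathway and target genes 6 fell, 1 rose and 10 did not pass (median −0.127). Called members were 41.2% of the list, against 10.6% of all genes. The lists share genes: IL7R (−1.21), given above as a thymocyte marker, is 1 of the 6 and passed in both fits. NOTCH1 stood at 591, 733 and 603 CPM under the siRNA1 label and at 945, 1075 and 696 CPM under the siRNA2 label. The groups overlap by replicate 2 of siRNA1 and replicate 3 of siRNA2, and the call (log2 fold change −0.48, SE 0.0786, adjusted p = 0.000192) is lost without the block (adjusted p = 0.245). NOTCH3 stood at 156, 174 and 176 CPM against 253, 259.9 and 230.4 CPM and passed in both fits (log2 fold change −0.56, SE 0.072, adjusted p = 1.07e-05). SHQ1, an assembly factor of telomerase and small nucleolar particles (−0.50), TRIB2 (−0.29) and MYC (−0.26) fell with the block only, and the receptor NOTCH2 rose (0.31), also with the block only and not without replicate 1 of the siRNA1 label.

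Of 28 T lineage transcription factors 8 fell, 4 rose and 16 did not pass (median −0.0383), with 42.9% called against 10.6% of all genes. Without 1 library 4 to 10 fell, with 4 lower without replicate 1 of the siRNA1 label or replicate 2 of the siRNA2 label and 5 without replicate 3 of the siRNA1 label. MYB, a driver of thymocyte proliferation with 1 copy of the word, stood at 316, 331 and 319.9 CPM against 436, 459 and 475 CPM, with narrow groups far apart (log2 fold change −0.50, SE 0.0657, adjusted p = 1.28e-05). BACH2, a repressor of effector genes, stood at 14.4, 15.2 and 20.4 CPM against 27.8, 27.0 and 31.0 CPM (log2 fold change −0.79, SE 0.0793, adjusted p = 3.23e-07). These were the 2 that passed without the block. BCL11B (−0.42), TCF7 (−0.36), LEF1 (−0.26), FOXP1 (−0.26), ETS2 (−0.23) and RUNX1 (−0.20) also fell, and ID3 (0.66), IKZF2 (0.45), RUNX3 (0.44) and ETS1 (0.34) rose. Of 24 T-ALL tumour suppressor genes 4 fell and 0 rose, among them the deubiquitinase USP7 (−0.49), all 4 with the block only, and 1 fell without replicate 1 of the siRNA1 label and 2 without replicate 2 of the siRNA2 label. The 4 are 16.7% of this list, against 10.6% of all genes called in either direction.

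Of 36 genes on a joint list of MYC and nucleolar genes 10 fell and 0 rose (median −0.156). That is 27.8% of the list, against 10.6% of all genes called in either direction. ODC1, the first enzyme of polyamine synthesis, stood at 152, 161 and 139.8 CPM against 206, 235 and 209.7 CPM and was the 1 member to pass without the block (log2 fold change −0.52, SE 0.0654, adjusted p = 6.97e-06). MYC itself stood at 277, 465 and 289.6 CPM against 335, 548 and 353 CPM, with replicate 2 high in both labels (log2 fold change −0.26, adjusted p = 0.0255, and 0.79 without the block). Without replicate 1 or without replicate 3 of the siRNA1 label 4 members were lower, and without replicate 2 of the siRNA2 label 5. Of 69 ribosomal protein genes 1 passed (1.45%), and 1 to 3 without 1 library.

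T cell receptor genes went both ways. Of 29 genes of the receptor complex and its proximal signalling 7 rose and 3 fell (median 0.094), with 34.5% called against 10.6% of all genes. PTPRC, the CD45 phosphatase, stood at 604, 548 and 579.8 CPM against 371, 382 and 432 CPM (log2 fold change 0.55, SE 0.0672, adjusted p = 5.16e-06). CD3G, a signalling chain of the receptor, stood at 168, 169.6 and 154 CPM against 217, 228 and 220.1 CPM (log2 fold change −0.44, SE 0.0605, adjusted p = 2.8e-05). Neither gene's groups overlapped, and both passed without the block. CD8B (0.65), PRKCQ (0.52), CD28 (0.32) and CD247 (0.24) were among those that rose with the block only, and CD2 (−0.39) and CD4 (−0.28) fell with the block only. Without replicate 3 of the siRNA1 label 4 rose, and without its replicate 1 1 fell.

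Cytokine receptors and JAK-STAT genes were also split, with 5 of 32 higher and 5 lower (3 lower without replicate 3 of the siRNA1 label). In the main fit 31.2% of them were called, against 10.6% of all genes. IL6R, the interleukin-6 receptor chain, stood at 30.2, 17.6 and 36.2 CPM against 14.6, 7.87 and 14.3 CPM. Its groups did not overlap, and replicate 2 was low in both (log2 fold change 1.18, SE 0.0765, adjusted p = 6.42e-10, and 0.127 without the block). IL9R (log2 fold change 0.87) and IL2RB (0.61) rose and IL10RB (−0.51) fell in both fits. IL7R, counted in the thymocyte and NOTCH1 lists too, is another of the lower genes and also passed in both. IL2RA (−0.96) and CRLF2 (−0.57), both at low levels, fell with the block only. Of 30 chemokine receptors, egress receptors and integrins 5 rose and 5 fell (33.3% called), and 8 rose without replicate 2 of NTC. Besides CXCR3 and CCR4, the gut-homing integrin chain ITGB7 rose (1.12) and the laminin-binding ITGA6 fell (−0.89) in both fits, and CCR8 (−0.72), CXCR6 (−0.65) and ITGA4 (−0.42) fell with the block only.

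Of 12 cytotoxic granule and natural killer receptor genes tested 6 rose, 0 fell and 6 did not pass, with a median log2 fold change of 0.513. That is 50% called against 10.6% of all genes, although the list had a median level of only 1.23 CPM. NKG7, a granule membrane protein, stood at 306, 334 and 292 CPM against 215, 246 and 179 CPM (log2 fold change 0.55, SE 0.0672, adjusted p = 5.43e-06). NCR2 stood at 2.90, 3.68 and 3.08 CPM against 1.07, 1.84 and 0.830 CPM (log2 fold change 1.39, SE 0.15, adjusted p = 9.88e-07). NKG7, NCR2 and IL2RB passed in both fits, and GZMM (0.77), NCR3 (0.72) and CTSW (0.60) with the block only. Between the siRNA1 label and NTC, with the block, NCR2, NCR3 and IL2RB were also higher. GZMM did not pass there (log2 fold change 0.23, adjusted p = 0.407 in edgeR). ADGRG1, the receptor of cytotoxic lymphocytes described above, is not on this list and was lower. The defining natural killer markers NCAM1, KLRF1 and NCR1 had a mean of 0 or near 0 CPM, and the sum of 5 such markers was 0.0646 to 0.147 CPM under the siRNA1 label and 0.061 to 0.197 CPM under the siRNA2 label.

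Of 45 interferon-stimulated genes 15 rose and 2 fell (median 0.137), with 37.8% called against 10.6% of all genes. RSAD2, the antiviral viperin, stood at 24.4, 18.4 and 24.1 CPM against 13.1, 9.70 and 14.5 CPM (log2 fold change 0.85, SE 0.0748, adjusted p = 5.73e-08). GBP2 stood at 2.16, 2.60 and 3.55 CPM against 0.930, 1.18 and 1.34 CPM (log2 fold change 1.26, SE 0.139, adjusted p = 1.5e-06). These were the 2 members that passed without the block. OAS1 (0.75), IFIT1 (0.47), GBP1 (0.46), IFITM1 (0.44) and IRF7 (0.44) were among the other higher members, and MX2 (−0.25) and XAF1 (−0.28) were the lower ones. IFIT1 holds the 7-base word in its 3′ UTR and was higher, and its call was lost in 4 of 9 fits without 1 library. Without 1 library 10 to 15 rose and 0 to 3 fell. OAS1 stood at a mean of 2.79 CPM under the siRNA1 label, 1.70 CPM under the siRNA2 label and 2.38 CPM under NTC. On a separate list of 11 MHC class II genes tested, at a median of 1.69 CPM, 2 rose, 0 fell and 9 did not pass (18.2% called). HLA-DMB, which loads peptides onto MHC class II, rose in both fits (log2 fold change 1.19, SE 0.158, adjusted p = 1.53e-05). Its means were only 2.31 and 1.01 CPM under the siRNA1 and siRNA2 labels. CTSS, the other, rose with the block only (0.31). Of 20 NF-kappa-B genes 3 rose and 1 fell (20% called), led by the kinase MAP3K8 (0.95), which passed in both fits. Without replicate 2 of NTC 7 of them rose and 3 fell.

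Cell cycle genes differed by phase list and by little. Of 50 G2/M and spindle genes 14 rose and 2 fell (median 0.127), while of 44 G1/S and replication genes 0 rose and 1, UHRF1 (−0.37), fell (adjusted p = 0.0757 without the block). Called members were 32% of the G2/M list and 2.27% of the G1/S list, against 10.6% of all genes. AURKB, a kinase of chromosome segregation, had the largest increase of the G2/M genes, at 140.1, 150.5 and 121 CPM against 106, 129 and 85.0 CPM, and its groups overlap (log2 fold change 0.37, SE 0.0699, adjusted p = 0.000828, and 0.369 without the block). All 16 calls were made with the block only, and without replicate 1 of the siRNA1 label 2 rose and 2 fell, with 2 to 17 higher and 0 to 2 lower over the 9 fits. Of 31 cholesterol and fatty acid synthesis genes 7 rose and 1 fell (25.8% called), all with the block only. These calls were lost without replicate 1 of the siRNA1 label. Of 32 ATF4 and unfolded protein response genes 5 rose, led by the cystine carrier SLC7A11 (0.51), all 5 with the block only, and without replicate 1 of the siRNA1 label 1 rose. The 5 are 15.6% of this list, against 10.6% of all genes called in either direction.

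Of 24 Ras pathway regulators 4 fell and 2 rose: after DAB2IP came the exchange factor RASGRP2 (−0.80), the inhibitor SPRED2 (−0.74) and the phosphatase DUSP6 (−0.37), of which RASGRP2 passed in both fits and the other 2 with the block only. Without 1 library 3 to 5 Ras regulators fell and 1 to 2 rose. The share called in the main fit was 25% of the Ras list, against 10.6% of all genes. Of 17 genes of RNA interference 5 fell and 1, DROSHA (0.25), rose (35.3% called). DROSHA lost its call without the block (adjusted p = 0.242) and in 3 of 9 fits without 1 library. Without replicate 1 of the siRNA1 label 2 members fell and 0 rose. AGO4, an Argonaute with 2 copies of the word, stood at 40.5, 38.0 and 41.1 CPM under the siRNA1 label, at 59.4, 56.8 and 57.8 CPM under the siRNA2 label and at 56.0, 57.7 and 54.8 CPM under NTC (log2 fold change −0.54, SE 0.0645, adjusted p = 3.97e-06). AGO2, the slicing Argonaute, stood at 178, 161 and 195 CPM, at 271, 228 and 242 CPM and at 192, 215 and 209 CPM in the same order (log2 fold change −0.47, SE 0.0738, adjusted p = 0.000122). For AGO4 the siRNA1 libraries were the low ones. For AGO2 the siRNA2 libraries lay above both other groups, but neither label passed against NTC in edgeR. The AGO2 log2 fold change was 0.26 for siRNA2 minus NTC (adjusted p = 0.177) and −0.21 for siRNA1 minus NTC (adjusted p = 0.0701). Of 22 nuclear receptor and retinoid genes 4 rose and 2 fell (27.3% called), with RXRA and RARG (0.66) higher and RORA (−0.93) lower in both fits. Without 1 library 3 to 4 of them rose and 1 to 2 fell.

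**Figure D5:**
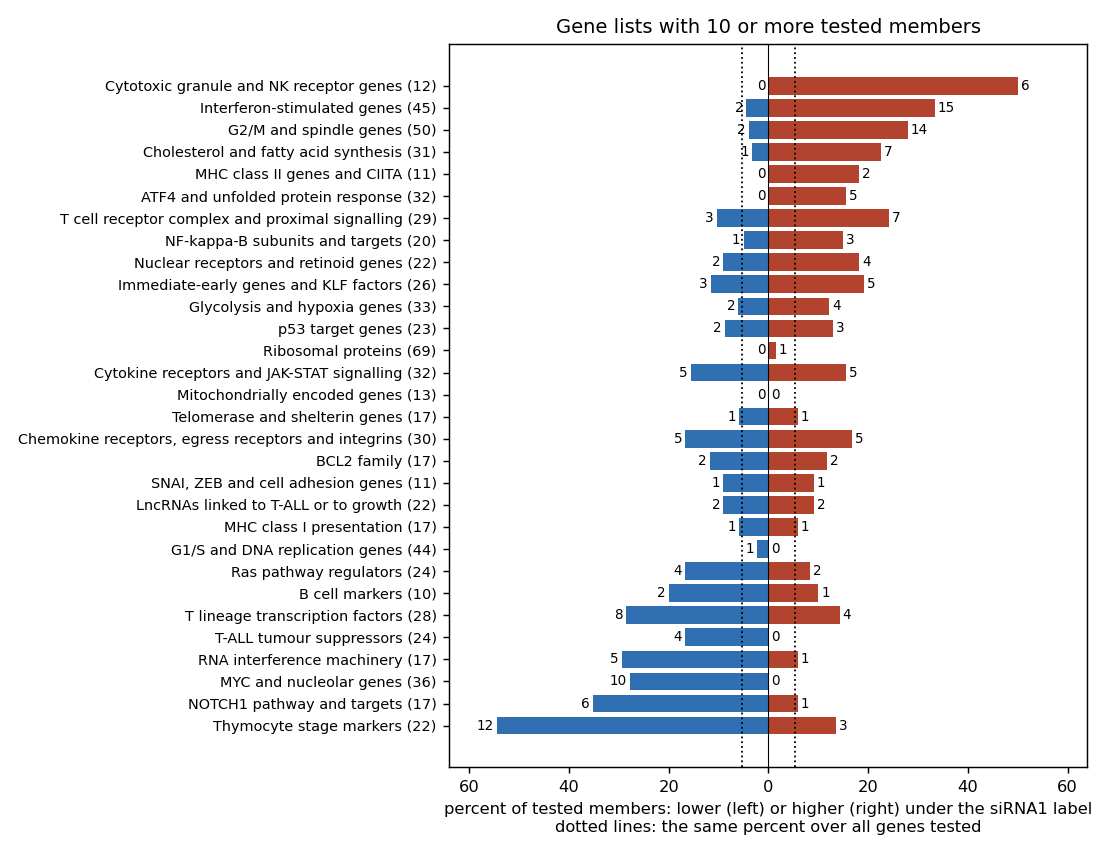
Bars give the percent of tested members that were lower (left, blue) or higher (right, red) under the siRNA1 label for each list with 10 or more members tested, with the number of members at the bar's end and the list size in brackets. The dotted lines mark the 5.27% lower and 5.29% higher over all genes, and the thymocyte list with 12 lower and the cytotoxic list with 6 higher members reach farthest.

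Of 10 B cell genes tested IGLL1 (log2 fold change −1.26) and MZB1 fell and CD72 (0.68) rose in both fits, which is 30% of the list against 10.6% of all genes, while the sum of 5 defining B cell markers was 13.3 to 21.3 CPM under the siRNA1 label and 11.0 to 20.5 CPM under the siRNA2 label. MZB1, a chaperone of immunoglobulin secretion, stood at 110.1, 110.5 and 116 CPM against 193, 181 and 179 CPM (log2 fold change −0.71, SE 0.0659, adjusted p = 1.06e-07). Of 5 myeloid and 3 erythroid genes tested, at median levels of 0.195 and 0.167 CPM, edgeR called 0, and 0 had an unadjusted p under 0.05. In bulk RNA, fewer cells of a type and less RNA per cell cannot be told apart.

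Of 3635 long noncoding RNA (lncRNA) genes tested 148 rose (4.07%) and 80 fell (2.20%), and without the block 5 rose (0.138%) and 6 fell (0.165%). Each share lay under that of all genes, which was 5.29% and 5.27% with the block and 0.345% and 0.738% without it. AC011893.1 (chr2:135820191-135823087) stood at 42.2, 52.8 and 36.0 CPM under the siRNA1 label and at 91.0, 113 and 90.1 CPM under the siRNA2 label (log2 fold change −1.17, SE 0.0662, adjusted p = 6.43e-11). It lies within LCT, on the other strand, and the counts cannot tell the strands apart. HDAC2-AS2 (chr6:113969701-114471705), which spans HDAC2 on the other strand, stood at 10.6, 5.91 and 9.83 CPM against 5.27, 2.81 and 4.08 CPM (log2 fold change 1.12, SE 0.112, adjusted p = 3.56e-07, and 0.0979 without the block). AC116351.1 stood at 20.6, 19.3 and 25.2 CPM against 41.1, 35.0 and 40.9 CPM (log2 fold change −0.85, SE 0.0704, adjusted p = 2.7e-08). AL359979.2 (1.31), AL365181.2 (1.10) and LINC01973 (1.08) rose, and AC022167.3 (−1.15), AC004585.1 (−0.85) and AC107214.2 (−0.83) fell, all with means under 3 CPM in each group. AC022167.3 overlaps USP7 on the other strand by 1809 bases, and the counts cannot tell the strands apart. USP7 stood at means of 393 and 550 CPM under the siRNA1 and siRNA2 labels and was also lower under the siRNA1 label. AL365181.2 (adjusted p = 0.179), LINC01973 (0.173), AC004585.1 (0.48) and AC107214.2 (0.286) lost their call without the block.

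In a smaller group of genes it was the siRNA2 libraries that stood apart from NTC. Against NTC, 2116 genes passed under the siRNA1 label (11.4%) and 28 under the siRNA2 label (0.151%), in the fit with the block, while without it 238 (1.28%) and 0 passed, with 392 genes at an unadjusted p under 0.05 for siRNA2 in edgeR. Each siRNA2 minus NTC call given here is therefore made with the block only. These comparisons share the NTC libraries with each other and the TLX1 siRNA libraries with the comparison above, so their values are given side by side. SHMT1, the cytosolic serine hydroxymethyltransferase, stood at 119, 88.3 and 91.2 CPM under the siRNA1 label, at 68.2, 48.5 and 62.4 CPM under the siRNA2 label and at 114, 79.3 and 95.5 CPM under NTC. Its siRNA2 libraries lay below the other 6 (siRNA1 minus siRNA2 log2 fold change 0.74, adjusted p = 1.01e-07; siRNA2 minus NTC −0.69, adjusted p = 1.96e-05; siRNA1 minus NTC 0.05, adjusted p = 0.7). The call between the siRNA labels is lost without the block (adjusted p = 0.0573).

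EZR, which links the membrane to actin, stood at 350.1, 335 and 318 CPM under the siRNA1 label, at 258, 241 and 253 CPM under the siRNA2 label and at 353, 313 and 336 CPM under NTC (siRNA1 minus siRNA2 log2 fold change 0.42, adjusted p = 5.59e-05; siRNA2 minus NTC −0.41, adjusted p = 0.00258). RPL37, the ribosomal protein gene that passed, had the same order, at 889, 872 and 809, at 601, 697 and 611, and at 810.2, 764 and 849.6 CPM (siRNA1 minus siRNA2 log2 fold change 0.43, adjusted p = 0.000188; siRNA2 minus NTC −0.35, adjusted p = 0.0386). EPAS1, a hypoxia-inducible factor, was higher under the siRNA2 label, at 6.38, 4.23 and 4.51 CPM, against 2.996, 2.70 and 3.16 CPM under the siRNA1 label and 3.89, 1.92 and 2.68 CPM under NTC (siRNA1 minus siRNA2 log2 fold change −0.75, adjusted p = 0.000415, and 0.215 without the block). In these genes the siRNA1 and NTC libraries overlapped and the siRNA2 libraries lay outside both. For EPAS1 the gap to NTC was narrow, from 3.89 CPM to 4.23 CPM, and no siRNA2 minus NTC test is given for it. SHMT1, EZR and EPAS1 were chosen after their values were seen.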

How the data were processed

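PolyA+ RNA was sequenced in 9 unstranded libraries, per the labels' protocols. The authors deposited whole-number counts of reads per gene, 1 table per library, on GRCh38 per the submitters' processing notes. Which aligner and annotation were used is not stated there or in the labels. The unstranded count was used and 4 summary rows per table were dropped, so that 75.5% to 77.6% of reads entered the tests. Of 58096 gene identifiers 57492 matched GENCODE 29. Reads of overlapping or antisense genes cannot be told apart; 61 of 125 named genes overlap an annotated gene on the other strand.

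Tests used edgeR 4.0.16 (R 4.3.3) after filterByExpr (minimum count 10, minimum total 15) and TMM scaling (0.975 to 1.04), in a quasi-likelihood fit of all 9 libraries with 3 groups and the replicate number as a block, Benjamini-Hochberg adjusted over all genes. The block comes from the replicate numbers in the titles, and the correlations behind it are given with the libraries above. In counts simulated for siRNA1 against siRNA2 over 18274 genes, the fit with the block called 82 of 97 genes changed by 1 on the log2 scale, 67 of 98 changed by 0.5, and 12 unchanged genes. The simulated counts were built with a replicate effect and with the spread estimated under the block. They therefore cannot decide between the fits with and without it. No 2 libraries of a group were repeats of each other (chi-square per degree of freedom 41.7 to 53.6). Counting error is small at this depth except in genes with few reads, such as NR4A3, and intervals from it would cover counting error only.

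Named genes were TLX1, TLX1NB, TLX2, TLX3 and their locus; the 12 each way with the largest fold change at a mean of at least 1 CPM and 1 sign in all pairs; the 5 each way with the smallest p; up to 4 passing members of each of 35 lists (895 of 897 names matched); and 5 lncRNA genes each way at a mean of at least 0.5 CPM. A few members are not reported here. The comparison, members and lists were chosen with earlier results of these data known. Alternatives covered the block, the libraries fitted, scaling, filter, tool (DESeq2 1.42.0, limma-voom 3.58.1), strand columns, depth and each library or number left out.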

Additional observations from a re-analysis of the deposited data

How the results depend on the processing

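The replicate block decides most calls: 1958 genes (228 lncRNA genes) passed with it and 201 (11) without it, and with only the 6 libraries fitted and no replicate block 117 (6) passed. Leaving out 1 library at a time gave 980 to 2387 genes and 94 to 292 lncRNA genes, and leaving out 1 replicate number 1015 to 1718 and 111 to 209. The low counts came without replicate 1 of the siRNA1 label (980 and 94), without its replicate 3 (1135 and 130), without replicate 3 of the siRNA2 label (126 lncRNA genes), without replicate 1 (1015 and 111) and without replicate 3 (1271 and 121). All other settings for these counts (only the 6 libraries with the block, RLE or library-size scaling, other filters, DESeq2, limma-voom, summed strand columns and equal depth, the last added after seeing the data) gave counts within 1.5 times. The share of higher genes was 50.1% with the block and 31.8% without it. The 3 TLX1 contrasts kept their direction and their side of the threshold in every setting run, and siRNA1 minus siRNA2 lay between 0.9731 and 1.129 over the libraries left out. No named gene that passed changed sign. Of these 123 genes, 49 also passed without the block, 87 in all 9 fits without 1 library and 38 in every setting. The cause of the lost calls was not tested. Of the 1958 genes that passed, 1361 were among the 8938 at 10 CPM or more, and with all libraries at equal depth 1906 passed.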

Other observations

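Gene groups not described above showed small differences between the siRNA1 and siRNA2 labels, and each call given here was made with the replicate block only. Of 17 BCL2 family genes 2 rose and 2 fell. BMF, a BH3-only inducer of apoptosis, stood at 71.2, 104 and 76.4 CPM in replicates 1 to 3 of the siRNA1 label and at 41.2, 72.2 and 45.7 CPM in those of the siRNA2 label, so the groups overlap and each pair differs the same way (edgeR log2 fold change 0.69 with an SE of 0.0793, adjusted p = 2.39e-06, and 0.375 without the block). BCL2L1, which encodes the anti-apoptotic BCL-XL, fell (log2 fold change −0.41, adjusted p = 0.00028), as did BCL2L11, the BH3-only BIM (−0.22). Of 33 glycolysis and hypoxia genes 4 rose and 2 fell: the oxygen sensor EGLN3 rose (0.52), and its relative EGLN1 (−0.47) and hexokinase HK2 (−0.47) fell. Of 26 immediate-early genes and KLF factors 5 rose, led by KLF10 (0.45), and 3 fell, among them NR4A3 (−1.71) at a mean of 0.204 CPM or less in each group, and without replicate 1 of the siRNA1 label 1 rose and none fell. Of 17 MHC class I presentation genes 1 rose and 1, the peptide transporter TAP2, fell (−0.27). Of 23 p53 target genes 3 rose and 2 fell, all by 0.30 or less on the log2 scale, and none of these calls was made without replicate 1 of the siRNA1 label. Over the 9 fits without 1 library 1 to 3 BCL2 family genes rose and 1 to 2 fell, 1 to 7 glycolysis and hypoxia genes rose, and 0 to 4 MHC class I genes rose and 0 to 2 fell. In the main fit 10.6% of all genes were called in either direction. The share was 11.8% for the MHC class I list and 18.2% for the glycolysis and hypoxia list. It was 21.7% for the p53 targets, 23.5% for the BCL2 family and 30.8% for the immediate-early and KLF list.

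Of 22 long noncoding RNAs on the list for leukaemia and growth, 2 rose and 2 fell, with 1 to 3 and 0 to 2 over the same fits. In the main fit 18.2% of this list was called, against 10.6% of all genes. NEAT1, the scaffold of nuclear paraspeckles, stood at 196, 139.5 and 294 CPM against 129, 96.1 and 167 CPM (edgeR log2 fold change 0.66 with an SE of 0.117, adjusted p = 0.00047, and 0.317 without the block). H19, an imprinted transcript, stood at 275, 356 and 124 CPM against 366, 465 and 154 CPM, with replicate 3 low in both labels (log2 fold change −0.37, SE 0.0907, adjusted p = 0.00868, and 0.853 without the block). Of 13 mitochondrially encoded genes 0 passed in edgeR with the block, and 2 had an unadjusted p under 0.05.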
